A study of Homo sapiens with 12 samples.

Results

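Messenger RNA levels in MCF10A cells that had received a mimic of the canonical miRNA, hsa-miR-140-3p, were compared with those in MCF10A cells that had received control mimics. MCF10A is a non-tumorigenic, immortalised line of human breast epithelium. The comparison comprised 4 of the 12 arrays of the study, which were chosen by their sample titles. They are 2 arrays with hsa-miR-140-3p, labelled replicates 1 and 2, 1 array with mimic-ctrl1 and 1 array with mimic-ctrl2. The other 8 arrays held 5’isomiR-140-3p in MCF10A cells, and all of these mimics in the breast cancer line MDA-MB-231. All cells, controls included, received a synthetic mimic at 30 nM by lipofection, and RNA was taken 48 h later. The measured RNA therefore reflects transient addition of 1 RNA to 1 cell line, and no protein was measured.

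A mature miRNA guides an Argonaute protein to messenger RNAs, mostly through pairing of its seed, the bases after the first at its 5′ end, with sites in the 3′ untranslated region. Paired transcripts are translated less and degraded faster, so direct targets tend to lose RNA, while later effects can run either way. MIR140 lies in an intron of WWP2, a ubiquitin ligase gene, and is best known for its high expression in cartilage. A 5’isomiR is a form of the same miRNA whose 5′ end is shifted, so that its seed is shifted as well.

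The guide strand of the mimic is shown because its seed is the part through which a miRNA mostly finds its targets. Bases 2 to 8, the seed, are in capitals, and the sequence is that of RefSeq, at chr16:69933142-69933162 on the plus strand of GRCh38.p14.
hsa-miR-140-3p: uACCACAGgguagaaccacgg
The seed ACCACAG pairs with CUGUGGU in a messenger RNA, and 1 of 2370 human mature miRNAs in the RefSeq table carried it, hsa-miR-140-3p itself. The seed of 5’isomiR-140-3p, CCACAGG, covers bases 3 to 9 of the canonical form and was carried by 0 of the 2370. The span of WWP2, chr16:69762332-69941739, encloses the mature sequence. WWP2 itself had log2 levels of 7.30 and 7.27 with hsa-miR-140-3p, against 7.17 with mimic-ctrl1 and 7.61 with mimic-ctrl2 (log2 fold change -0.11, adjusted p = 0.85, limma).

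Levels are given as log2 intensities after background correction and quantile normalization. A probe was taken as above background where it exceeded the 0.99 quantile of olfactory receptor probes on its array, a deposited intensity of 130 to 142, and 13005 to 14504 probes per array did. All 7 basal epithelial markers with a probe, among them KRT5 and KRT14, lay above background on all 4 arrays. So did 5 of 11 luminal markers, among them KRT8 and MUC1, whereas 6, ESR1 and PGR included, lay below it on each. Of 6 leukocyte markers 2, CD14 and CD68, lay above it on all 4 arrays, and 3, PTPRC included, on none. All 5 endothelial markers lay below it on each array. The hsa-miR-140-3p arrays correlated at 0.992 and the control arrays at 0.985, while the arrays of different groups correlated at 0.985 to 0.986. The median gap was 0.126 log2 units between the hsa-miR-140-3p arrays and 0.205 between the control arrays, and 81 and 196 genes differed by more than 1 log2 unit in these pairs. The mimic-ctrl1 and mimic-ctrl2 arrays therefore differed from each other about as much as from the hsa-miR-140-3p arrays. The study's methods describe the hsa-miR-140-3p arrays as biological replicates. The control group holds 1 array of each control mimic, so its spread cannot be told apart from a difference between these mimics.

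With hsa-miR-140-3p, 75 of 10491 genes were lower and 15 were higher than with the control mimics. These are 0.715% and 0.143% of the genes tested, so more genes were called lower than higher. The limits for the calls, given next, are of unequal size on the log2 scale. A gene was called lower when its level was under 65% of the control mean, and higher when it exceeded that mean by over 65%, and each call needed an adjusted p under 0.05 in limma. The genes that fell include MAP1LC3A, an LC3 protein of the autophagosome membrane, CHIC2, a membrane-associated protein of vesicle traffic, SLC2A3, the glucose transporter GLUT3, and ATP6V1D, a subunit of the proton pump of lysosomes. The genes that rose were led by MMP3, the matrix protease stromelysin, and KRT80, a keratin.

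The median log2 fold change was -0.95 over the 75 lower genes, 0.91 over the 15 higher genes and 0.01 over all genes. For all 90 the groups did not overlap. Both hsa-miR-140-3p arrays lay below both control arrays for 21.8% of all genes, and above both for 22.8%. Among the 75 lower genes the median distance from the higher hsa-miR-140-3p array to the lower control array was 0.79 log2 units, with a range of 0.45 to 1.79. This distance exceeded the gap between the control arrays in 74 of the 75, and in ATOSB it did not. Of the 75, 46 were above background on all 4 arrays, 6 on both control arrays and 1 hsa-miR-140-3p array, and 23 were at background on both hsa-miR-140-3p arrays. The 46 had levels of 33.1% to 64.8% of control. For the 23, the fold has only a bound, taken as the brighter group over the lowest level above background. It was at least 1.03-fold to at least 2.04-fold for 20 of them, while 3 had no bound above 1. The filter asked for at least 2 of the 12 arrays above background. Of the 23, SPINK6, LUM, PLD5, FMN2, RNF122, C3orf33, EAF2, ADAM32 and LPAR3 passed on both MCF10A control arrays. They did so on no MCF10A 5’isomiR-140-3p array and no MDA-MB-231 hsa-miR-140-3p or control array. They thus met the filter through the controls, where they are high, so their direction was in part fixed in advance.

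**Figure D1:**
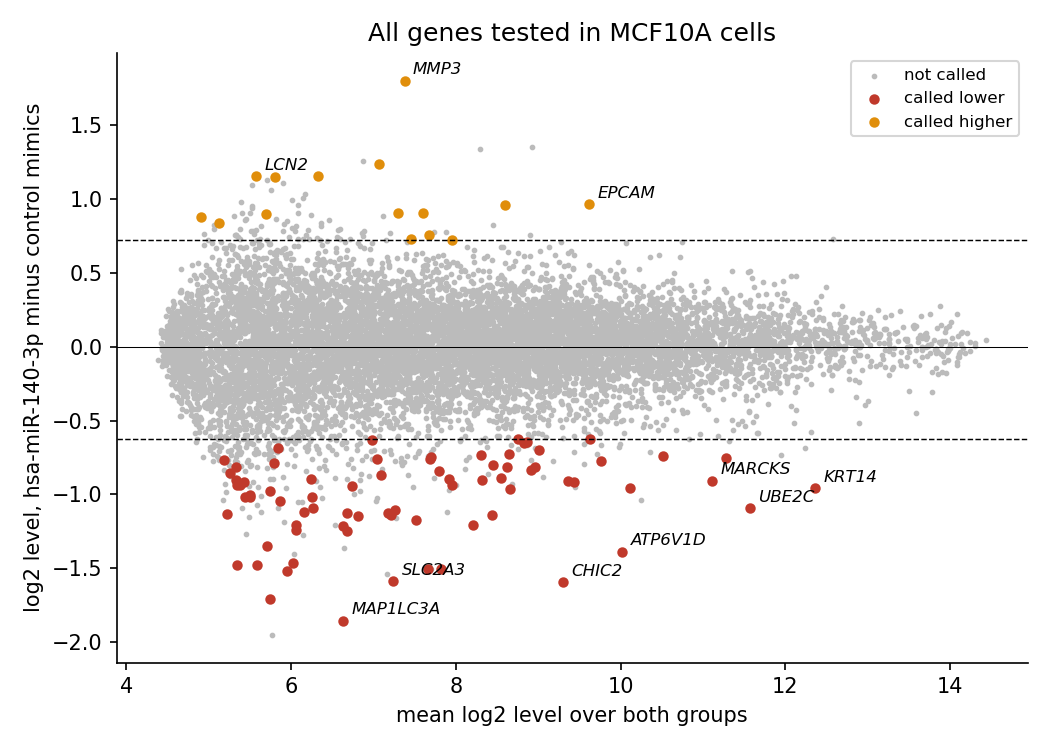
Log2 fold change of hsa-miR-140-3p over control mimics (y axis) against the mean log2 level over both groups (x axis), with 1 point for each of 10491 genes. Dashed lines stand at 65% of control and at 65% above it. The 75 genes called lower (red) extend to high levels, with UBE2C and KRT14 at the bright end, and the 15 called higher (orange) are fewer.

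The calls rest on a spread that all 12 arrays share. When the 4 arrays of the comparison were fitted alone, 0 genes were called in either direction, with 833 lower and 624 higher at an unadjusted p under 0.05 in the fit of all arrays. With the 6 MCF10A arrays alone, 1 gene was called lower, MAP1LC3A, and 0 higher. Leaving out hsa-miR-140-3p replicate 1 left 5 lower and 0 higher genes, and leaving out replicate 2 left 3 and 0. Without mimic-ctrl1 there were 85 lower and 42 higher genes, and without mimic-ctrl2 there were 42 and 5. Dropping one or the other of the MCF10A arrays with 5’isomiR-140-3p left 45 and 5. Among the MDA-MB-231 arrays, the counts were 29 and 5 when an array with hsa-miR-140-3p was dropped, 24 and 4 when an array with 5’isomiR-140-3p was, and 110 and 26 when a control array was. MAP1LC3A, CHIC2 and SLC2A3 kept their calls in all 12 of these fits. Over the 75 lower genes the median was 4 of the 12 fits.

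The 15 lower genes with the largest falls were separated from the controls on every array. MAP1LC3A had log2 levels of 5.69 and 5.72 with hsa-miR-140-3p, against 7.62 with mimic-ctrl1 and 7.51 with mimic-ctrl2. Its log2 fold change was -1.85 (SE 0.12, adjusted p = 0.00049, limma), and 1 of the hsa-miR-140-3p arrays was at background. Its deposited intensities were 135 and 136 with hsa-miR-140-3p, beside background levels of 142 and 130 on these arrays, and 280 and 266 with the control mimics. Both hsa-miR-140-3p values thus lay near the floor, so this fall has no exact size. CHIC2 was measured well above background everywhere, with deposited intensities of 429 and 458 in the hsa-miR-140-3p cells, against 1098 and 1276 in the control cells. It was expressed at 33.1% of control (log2 fold change -1.59, SE 0.13, adjusted p = 0.0012). SLC2A3, which carries glucose into cells with high affinity, was low on both hsa-miR-140-3p arrays, at log2 levels of 6.36 and 6.54, against 7.98 and 8.09 on the control arrays (33.3% of control, adjusted p = 0.0014). In these 3 genes the control arrays were farthest apart for CHIC2, by 0.22 log2 units.

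Others of these 15 were also above background on all 4 arrays, with standard errors from 0.14 for SLCO2A1 to 0.25 for MFAP5. MFAP5, a protein of elastic microfibrils, had log2 levels of 7.10 and 7.02 with hsa-miR-140-3p, against 8.42 and 8.72 with the control mimics (log2 fold change -1.51, SE 0.25, adjusted p = 0.029). The hsa-miR-140-3p arrays of TMEM245, a transmembrane protein, stood at 7.29 and 6.52, against 8.30 and 8.52 with the control mimics. ATP6V1D stood at 9.35 and 9.30 in the hsa-miR-140-3p cells, against 10.48 with mimic-ctrl1 and 10.95 with mimic-ctrl2. ATP6V1D thus fell to 38.2% of control (adjusted p = 0.035), with a gap of 0.47 log2 units between the controls. SLCO2A1, the prostaglandin transporter, and PLAAT3, a phospholipase, fell to 42.1% and 43.1% of control.

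The remaining 7 of the 15 were at background on both hsa-miR-140-3p arrays. They are SCD5, a stearoyl-CoA desaturase, ATOSB, SPINK6, an inhibitor of kallikrein proteases, LUM, the matrix proteoglycan lumican, PLD5, a member of the phospholipase D family, PTAFR, the receptor for platelet-activating factor, and GPM6A, a membrane glycoprotein of neurons. SCD5 had log2 levels of 5.11 and 4.67 with hsa-miR-140-3p, against 6.49 and 6.71 with the control mimics, and was at least 1.82-fold lower (adjusted p = 0.0071). The bound was at least 2.04-fold for PLD5, 1.97-fold for ATOSB, 1.92-fold for GPM6A, 1.56-fold for PTAFR, 1.51-fold for SPINK6 and 1.27-fold for LUM. The control levels of these genes lay between 5.85 for LUM and 7.14 for ATOSB. Their falls were thus read near the floor of the array. SPINK6, LUM and PLD5 met the filter through the control arrays, as given above.

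**Figure D2:**
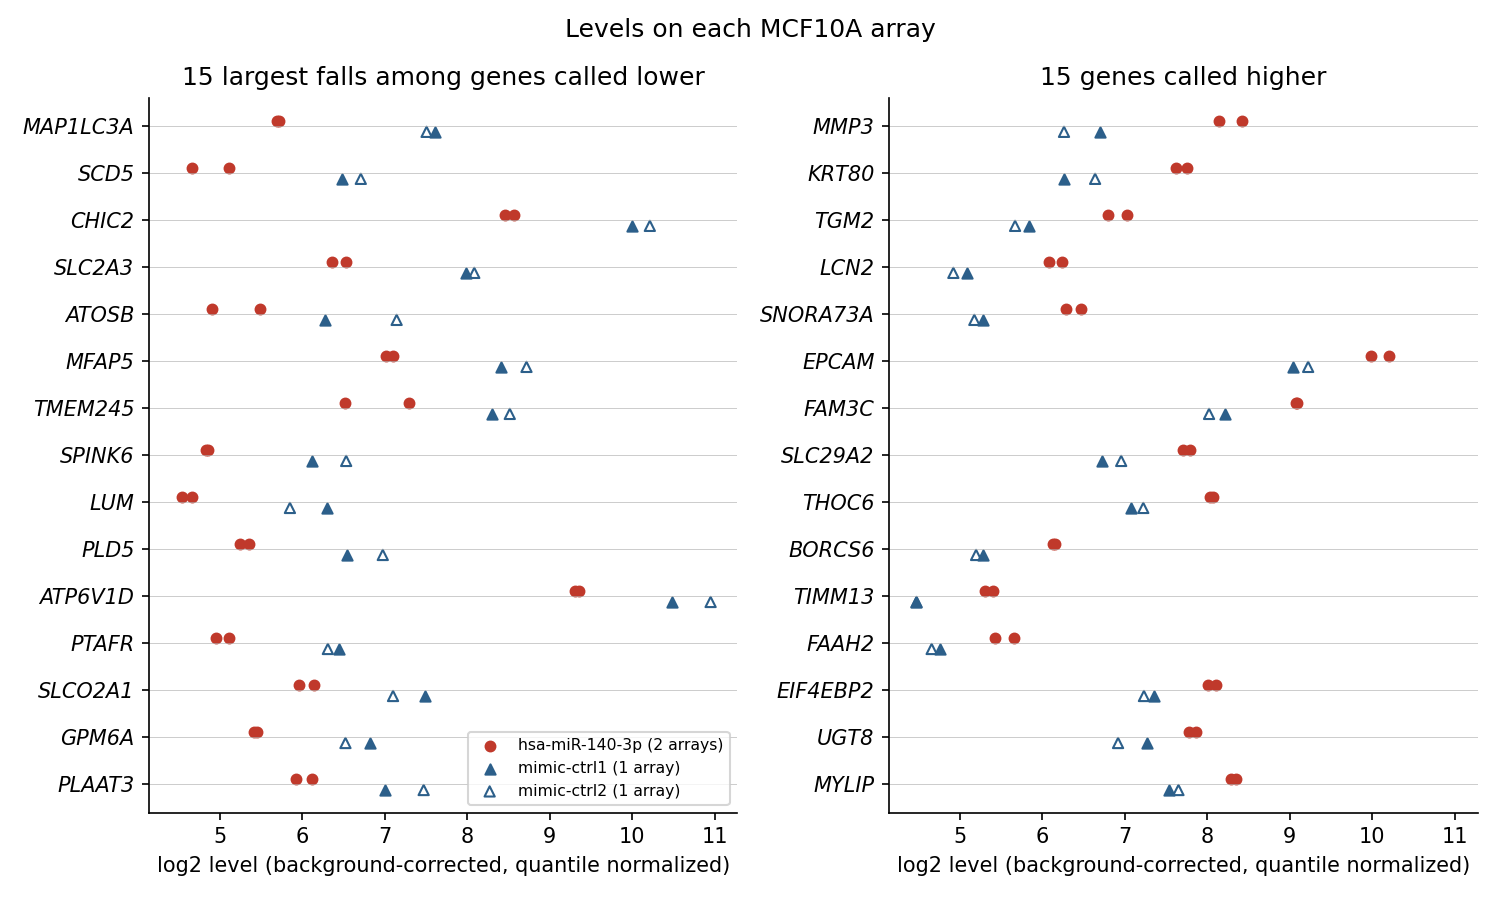
Log2 levels (x axis) on each of the 4 MCF10A arrays for the 15 lower genes with the largest falls (left) and the 15 higher genes (right). Red points are the 2 hsa-miR-140-3p arrays, and filled and open triangles are the mimic-ctrl1 and mimic-ctrl2 arrays. In every row both red points lie on the same side of both triangles, from MAP1LC3A at 5.69 and 5.72 against 7.62 and 7.51 to MMP3 at 8.14 and 8.42 against 6.69 and 6.26.

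Genes named below beyond the largest changes, the gene lists and the genes lower in both cell lines were chosen, and put into groups by their known roles, after their values had been seen. Several of the 75 act in autophagy, lysosomes and vesicle traffic. Beside MAP1LC3A, CHIC2 and ATP6V1D they include ATP6AP2, an accessory protein of the V-ATPase, at log2 levels of 10.22 and 10.08 with hsa-miR-140-3p against 10.92 and 10.86 with the control mimics (59.8% of control, adjusted p = 0.024). GOLT1B, a protein of Golgi transport, had 6.53 and 6.75, against 7.64 and 7.92 (45.3% of control, adjusted p = 0.0093). SAR1A, the small GTPase of vesicle budding from the endoplasmic reticulum, was at 52.1% of control and ARF5, a small GTPase of the Golgi, at 56.2%. REEP5, which shapes tubules of the endoplasmic reticulum, stood at 9.61 and 9.67 in the hsa-miR-140-3p cells, against 10.66 and 10.53 in the control cells (51.6% of control, adjusted p = 0.011). MFSD1, a lysosomal transporter, and PINK1, the kinase that marks damaged mitochondria for autophagy, were at 56.8% and 55.8%. All genes named in this group except MAP1LC3A were above background on all 4 arrays. RAB7B, a small GTPase of late endosomes, was also called lower but is not counted here, and it was at background on both hsa-miR-140-3p arrays.

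Genes of signalling formed a further group. CBL, the ubiquitin ligase that ends signalling of receptor tyrosine kinases, had log2 levels of 6.74 and 6.68 with hsa-miR-140-3p, against 7.67 and 7.96 with the control mimics (46.5% of control, adjusted p = 0.011). SPRED1, an inhibitor of RAS signalling, had deposited intensities of 588 and 572, against 1013 and 1045 (52.9% of control, adjusted p = 0.0093). The arrays of SPRED1 were close within each group, with gaps of 0.06 and 0.03 log2 units. MARCKS, a membrane-bound substrate of protein kinase C that binds actin, was among the brighter genes at 10.62 and 10.70 in hsa-miR-140-3p cells, against 11.48 and 11.66 in control cells (53.3% of control, adjusted p = 0.0093). RGS2, a brake on G proteins, fell to 43.4% of control, ARHGEF3, an exchange factor for RHOA, to 60.5%, and TRADD, an adaptor of the TNF receptor, to 64.5%.

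Ubiquitin and cell cycle genes included some of the brighter genes that fell. UBE2C, the ubiquitin-conjugating enzyme of the anaphase-promoting complex, stood at 11.03 and 11.01 with hsa-miR-140-3p, against 12.12 and 12.11 with the control mimics (46.8% of control, adjusted p = 0.012). Its arrays were 0.02 log2 units apart in both groups. CCNG2, a cyclin linked to growth arrest, was at 49.3% of control, with 1 hsa-miR-140-3p array at background. UBE2L6, the enzyme that conjugates the interferon-induced ISG15, was at 44.4%, and H2BC5, a histone H2B gene, at 54.7%. SBDS, a factor of ribosome maturation, stood at 8.94 and 8.88 in hsa-miR-140-3p cells, against 9.89 and 9.75 in control cells (53.2% of control, adjusted p = 0.011). DAZAP2, a small proline-rich protein, fell to 59.2% of control (SE 0.11 on the log2 scale, adjusted p = 0.015).

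KRT14, the basal keratin, was the brightest of the lower genes, with deposited intensities of 4013 and 3655 with hsa-miR-140-3p, against 8558 with mimic-ctrl1 and 6379 with mimic-ctrl2 (51.5% of control, adjusted p = 0.029). The control arrays differed by 0.43 log2 units here, and the call was kept in 3 of 12 fits that left out an array. KRT5, its partner keratin, had intensities of 4120 and 4259 in hsa-miR-140-3p cells, against 6654 and 6016 in control cells, and was not called. The summed intensity of the 7 basal markers was 16270 to 16347 with hsa-miR-140-3p, against 22683 to 28070 with the control mimics, and that of the 11 luminal markers was 4538 to 4839, against 4259 to 5086, with ESR1, PGR, KRT19, ELF5, KIT and TFF1 below background. Of the 7 basal markers 1 was called lower, KRT14, and 0 higher, with a median log2 fold change of -0.34, against 0.01 over all genes. Fewer basal cells and less of these transcripts per cell cannot be told apart in such samples. For the 6 leukocyte markers the sums were 2673 to 2918, against 2080 to 3120. Among them PTPRC, CD3E and HLA-DRA were below background on all 4 arrays, and CD14 and CD68 above it on all 4. For the 8 markers of MDA-MB-231 and mesenchymal cells they were 12803 to 13513, against 14989 to 17831, and for the 5 endothelial markers 516 to 535, against 499 to 526. The part of such shifts in the calls was not tested.

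The 15 genes that rose were led by MMP3, whose log2 levels were 8.14 and 8.42 with hsa-miR-140-3p, against 6.69 and 6.26 with the control mimics. It rose 3.49-fold (log2 fold change 1.80, SE 0.22, adjusted p = 0.0093). KRT80 stood at 7.76 and 7.62, against 6.26 and 6.64 (2.36-fold, adjusted p = 0.034), and TGM2, the tissue transglutaminase that cross-links proteins, at 7.03 and 6.80, against 5.84 and 5.67 (2.23-fold, adjusted p = 0.024). EPCAM, an adhesion molecule of epithelia, was the brightest of them, with 10.21 and 9.99 in hsa-miR-140-3p cells, against 9.04 and 9.22 in control cells (1.95-fold, adjusted p = 0.034). All its 3 probes gave a positive difference, of 0.97, 0.83 and 0.66 log2 units, of which the first was called and the last was above background on 1 of the control arrays. FAM3C, a secreted interleukin-like protein, rose 1.95-fold, SLC29A2, a nucleoside transporter, 1.88-fold, and MYLIP, the ubiquitin ligase that degrades the LDL receptor, rose by 0.72 on the log2 scale. None of the 15 was called in all 12 fits that left out an array. MMP3 and SNORA73A were called in 10, EPCAM in 4, FAM3C in 3 and KRT80 in 2.

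For 5 of the 15 the control arrays were both at background. SNORA73A, a small nucleolar RNA, was at least 1.70-fold higher. It was above background on no MCF10A 5’isomiR-140-3p array and no MDA-MB-231 hsa-miR-140-3p or control array. It thus met the filter through the hsa-miR-140-3p arrays, so its direction was in part fixed in advance. LCN2, the iron-binding protein lipocalin, was at least 1.46-fold higher and BORCS6, a subunit of the complex that positions lysosomes, at least 1.45-fold. FAAH2, an amide hydrolase, passed background on 1 hsa-miR-140-3p array, and TIMM13, a chaperone of the mitochondrial intermembrane space, on 0 of the 4 arrays, so no fold is given for either. The remaining higher genes were THOC6, a subunit of an RNA export complex, EIF4EBP2, a repressor of translation initiation, and UGT8, an enzyme of galactolipid synthesis, at 1.87-fold, 1.69-fold and 1.66-fold.

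Genes with more than 1 probe gave a second reading on the same arrays, since the brightest probe of a gene stood for it. The filter kept 20 further probes of the 75 lower genes, in 19 genes, of which 8 were above background on all 4 arrays, 8 on 1 to 3 of them and 4 on none. The 8 that were measured on all 4 arrays, each in a different gene, all gave a difference below 0, with a median of -0.77. Of these, 3 were themselves called lower, at -0.95 for PIGC, -0.92 for BCAS4 and -0.81 for AASDHPPT. The smallest falls among the 8 were -0.29 for H2BC5, against -0.87 for its brighter probe, and -0.33 for TTPAL, against -0.90. Further probes of UBE2C, APLP2, a member of the amyloid precursor family, and SPINK6 were called lower as well, but were at background on both hsa-miR-140-3p arrays, so their falls have no exact size. A further probe of FARP1 stood at 0.40 and was above background on 1 hsa-miR-140-3p array and 0 control arrays, whereas its brighter probe was at -0.95. The further probes of CCNG2 stood at -0.32 and -0.31, against -1.02 for the probe that was called, with 1 hsa-miR-140-3p array above background for each. Of the 6 further probes of the higher genes, 3 were above background on all 4 arrays, and 1 of these, in TGM2, was called. Further probes of KRT80 and TGM2 that were at background on all 4 arrays stood at 0.10 and 0.09, against 1.24 and 1.16 for the brighter probes.

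Most called genes lay outside the gene lists examined. In 28 gene lists with 634 genes tested, 10 genes were called lower and 3 higher. Over all 10491 genes the calls were 75 and 15, or 0.715% and 0.143%. Thus 65 of the 75 lower and 12 of the 15 higher genes belonged to no list. The lists were chosen with earlier results of these data known. Medians of the lists ran from -0.36 to 0.13, against 0.01 for all genes, and 17 lists held no call.

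Calls within lists fell on 1 or 2 members. Of 15 V-ATPase subunits tested, 2 were called lower, ATP6V1D and ATP6AP2, and the median was 0.01. Among 27 autophagy genes 1 was called, MAP1LC3A, with a median of -0.05, and among 24 lysosomal hydrolases and membrane proteins 0, with a median of -0.01. MFSD1, which was called lower, was not a member of the lysosomal list. Among 36 ARF and RAB GTPases 2 were called lower, ARF5 and SAR1A, and the median was -0.14. RAB7B, which was called lower too, was not a member of the GTPase list. SLC2A3 was the 1 call among 21 genes of glucose transport and glycolysis, with a median of 0.10, and 0 of 14 hypoxia-induced genes were called. CBL was the 1 call among 20 genes of the EGF receptor family, its ligands and regulators, with a median of 0.01. UBE2C was the 1 call among 33 genes of G2/M and mitosis, with a median of 0.06, while 0 of 29 genes of G1/S and DNA replication were called, with a median of 0.07. These counts stand against 0.715% of all genes called lower.

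Lists with inflammatory or epithelial genes held 0 or 1 call each. Of 30 interferon-stimulated genes 1 was called lower, TRIM22, an interferon-induced ubiquitin ligase, and 13 had both hsa-miR-140-3p arrays below both control arrays, against 21.8% of all genes. The median of this list, -0.31, was the second lowest of the 28, and only 13 of its 30 genes were above background on all 4 arrays. UBE2L6, which was called lower, was not a member of the list. TRIM22 had log2 levels of 5.35 and 5.84 with hsa-miR-140-3p, against 6.64 and 6.78 with the control mimics (46.1% of control, adjusted p = 0.024), and 1 of the hsa-miR-140-3p arrays was at background. Of 18 cytokines and chemokines 0 were called. IL6, an inflammatory cytokine, and CCL20, a chemokine for CCR6-bearing lymphocytes, had log2 fold changes of 0.71 (adjusted p = 0.073) and 0.61 (adjusted p = 0.067). LCN2 was the 1 call among 14 acute-phase and complement genes, MMP3 the 1 call among 18 matrix proteases, plasminogen activators and inhibitors, EPCAM the 1 call among 14 epithelial junction genes, and LUM the 1 call among 11 mesenchymal genes.

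Squamous differentiation genes had the lowest median of the 28 lists, -0.36, and 0 of 14 were called. KRT16, a keratin of activated epidermis, stood at 9.70 and 9.76 with hsa-miR-140-3p, against 11.19 with mimic-ctrl1 and 10.34 with mimic-ctrl2 (log2 fold change -1.04, adjusted p = 0.082). SERPINB3, a serpin of squamous epithelium, stood at 9.59 and 9.60, against 8.98 and 7.51 (log2 fold change 1.35, adjusted p = 0.15). In both genes the control arrays lay far apart, and the groups did not overlap.

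In 11 further lists no gene was called. They are miRNA processing and Argonaute proteins (11 genes tested, median 0.10), integrins (13, -0.17), actin filament regulators (32, -0.02), p53 targets and CDK inhibitors (23, -0.08), the unfolded protein response and ATF4 targets (27, 0.04), NRF2 targets (21, 0.08), TGF-beta ligands, receptors and targets (22, 0.06), cholesterol synthesis (17, 0.09), subunits of oxidative phosphorylation (39, 0.01), cytosolic ribosomal proteins (53, -0.01) and proteasome subunits (34, 0.10). AGO2, the Argonaute protein that cleaves targets, stood at 10.79 and 11.02 with hsa-miR-140-3p, against 10.61 and 10.19 with the control mimics (log2 fold change 0.50, adjusted p = 0.58). HMGCS1, an enzyme of cholesterol synthesis, had a log2 fold change of -0.56 (adjusted p = 0.17), and E2F2, a transcription factor of S phase, of 0.56 (adjusted p = 0.14). In both genes the groups did not overlap.

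**Figure D3:**
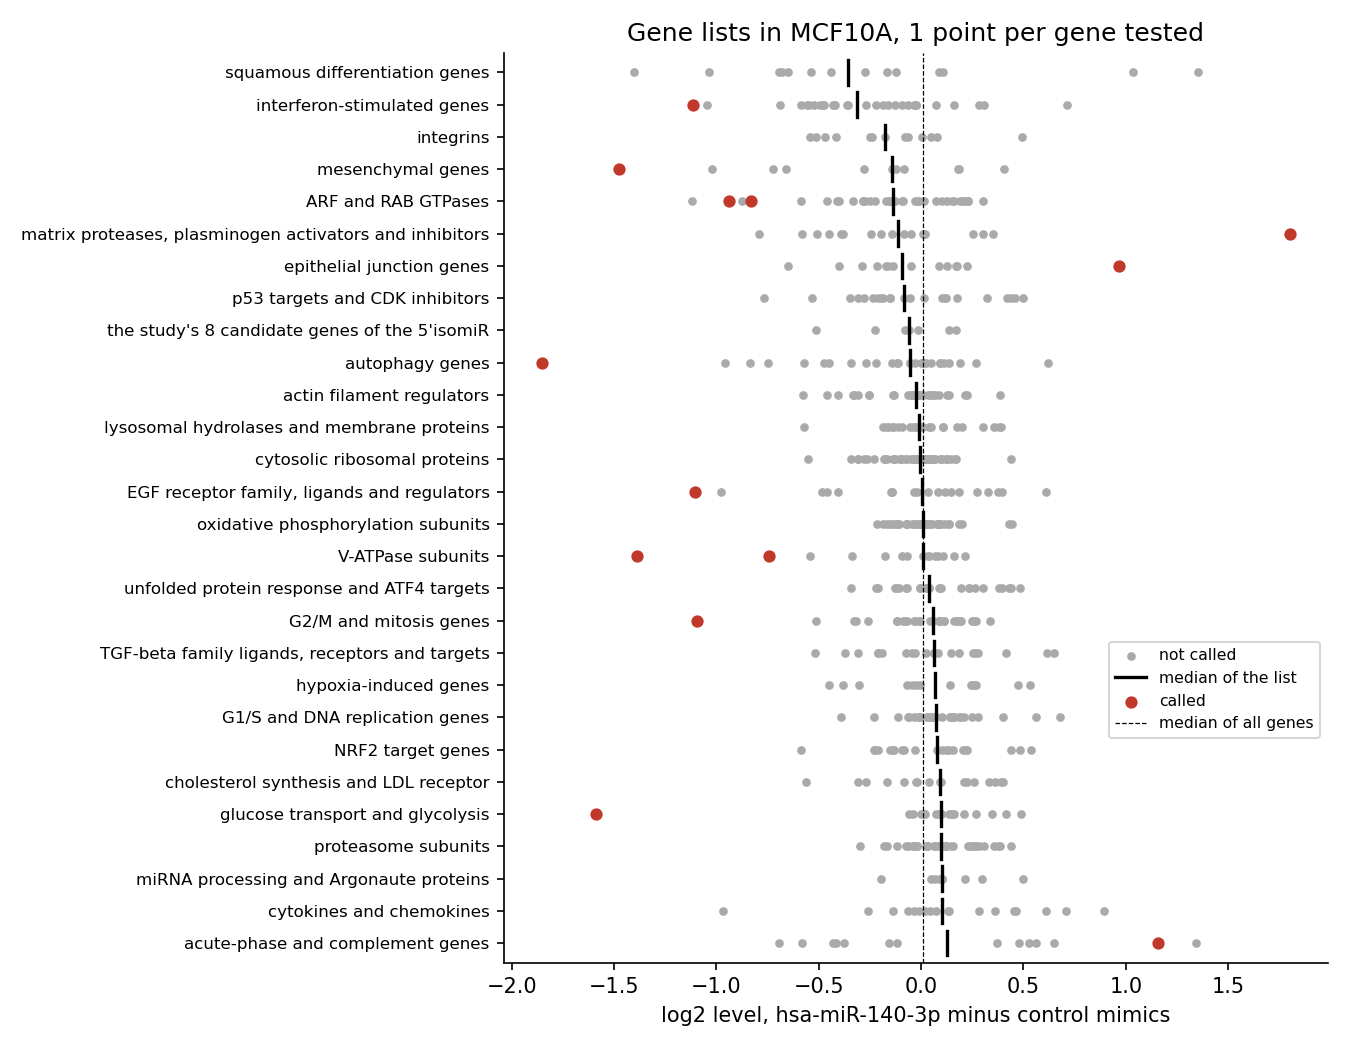
Log2 fold change of hsa-miR-140-3p over control mimics (x axis) for the genes tested in each of 28 lists (rows, ordered by median), with 1 point per gene, red where called, and a black bar at the median of the list. Bars lie between -0.36 for squamous differentiation genes and 0.13 for acute-phase and complement genes, and red points are single genes at the edges, such as MAP1LC3A at -1.85 and MMP3 at 1.80.

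The same mimic in MDA-MB-231 cells gives a comparison on arrays that the MCF10A calls did not use as samples. There 107 genes were called lower and 20 higher, 1.02% and 0.191% of the genes tested. Of the 75 genes lower in MCF10A cells, 29 were lower in MDA-MB-231 cells too, which is 38.7% of the 75 and 27.1% of the 107. Of the 15 higher genes, EIF4EBP2 and FAM3C were higher in both lines, at log2 fold changes of 0.76 and 0.96 in MCF10A cells, and of 0.77 and 1.14 in the MDA-MB-231 cells. No gene was called in opposite directions. Both lines were fitted in 1 model and share its spread.

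Values for all 75 lower genes in MDA-MB-231 cells include those of the 29 that were called there. Their median log2 fold change was -0.48, against -0.004 over all genes. It was below 0 for 62 of them, 82.7%, against 50.8% of all genes. Both hsa-miR-140-3p arrays lay below both control arrays of that line for 56 of the 75, against 22.2% of all genes. For the 46 that were not called there the median was -0.25, with 33 below 0 and 27 below both control arrays on both hsa-miR-140-3p arrays. The median of the 15 higher genes in that line was 0.31.

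Of the 29 genes lower in both lines, 23 were above background on all 8 arrays. Over the 29 the median log2 fold change was -0.94 in MCF10A cells, and -1.14 in the MDA-MB-231 cells, and 20 of the 29 fell further in MDA-MB-231. MAP1LC3A had -1.85 in MCF10A cells, read near the floor, against -2.33 in the cancer line. CHIC2 had -1.59 and -1.60, TMEM245 -1.50 and -1.88, and GOLT1B -1.14 and -1.79. The group holds genes of vesicle traffic and the lysosome, namely ATP6V1D, ATP6AP2, SAR1A, ARF5, REEP5 and GOLT1B, and of signalling, namely CBL, SPRED1, MARCKS and FARP1. It also holds enzymes, namely UBE2C, NMNAT2, which makes NAD, AASDHPPT, which activates acyl carrier proteins, MOCS2, which makes molybdopterin, and PIGC, which starts synthesis of GPI anchors. The other members were ATOSB, APLP2, AFAP1L2, LIAT1, SBDS, TSPAN13, WRAP73, BCAS4, DAZAP2, LHFPL2 and SLC20A2, a phosphate transporter.

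Of the 46 genes lower in MCF10A and not called in MDA-MB-231, 18 were at background on all 4 hsa-miR-140-3p and control arrays of MDA-MB-231. These include KRT14, LUM, SPINK6, PLD5, PTAFR, SLCO2A1, CA8, RAB7B and TRIM22, for which MDA-MB-231 gave no measurement of a fall. A further 24 were above background on all 4 of these arrays, with medians of -0.86 in MCF10A cells, and -0.41 in the cancer line, on the log2 scale. Among them SLC2A3 stood at -1.59 in MCF10A cells and at -0.23 in the cancer line. In the cancer line RGS2 was at 0.02, MTSS1, a protein that bends membranes, at -0.02 and PINK1 at -0.06.

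A test of the difference between the lines called 0 genes in limma, although 833 genes, 7.94%, had an unadjusted p under 0.05. The lowest adjusted p was 0.17, and 3 genes were called when the moderation used a trend and robust estimates. Among the 46 genes called in MCF10A and not in MDA-MB-231, 34 had an unadjusted p under 0.05 for the difference, SLC2A3 among them (adjusted p = 0.17). Among the 29 lower in both lines 5 had one, and these were MAP1LC3A, GOLT1B, PIGC, DAZAP2 and LHFPL2, each with the larger fall in MDA-MB-231. Both sets were chosen by calls from the same fitted values that make up this difference, so the 2 counts follow in part from that choice. Of the 46, 18 were also at background on all 4 MDA-MB-231 arrays of the contrast. Nothing is read from these counts. A larger effect in either line is thus not established for any single gene by the adjusted test.

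**Figure D4:**
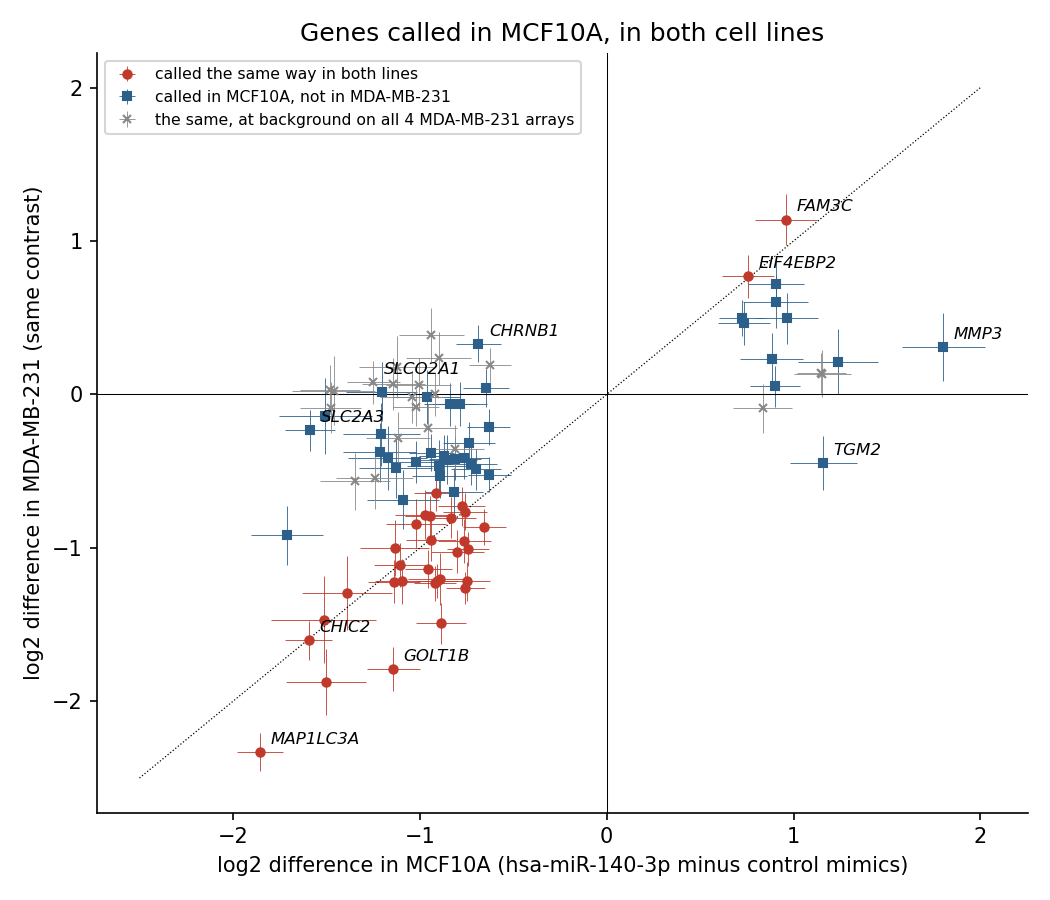
Log2 fold change of hsa-miR-140-3p over control mimics in MCF10A cells (x axis) and in MDA-MB-231 cells (y axis) for the 90 genes called in MCF10A, with bars of 1 standard error and a dotted line of equal change. Red points are the 29 lower and 2 higher genes called the same way in both lines, blue squares were called in MCF10A and not in MDA-MB-231, and grey crosses are such genes at background on all 4 MDA-MB-231 arrays. MAP1LC3A at -1.85 and -2.33 lies at the lower left, and SLC2A3 at -1.59 and -0.23 lies near the line of no change in MDA-MB-231.

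The 2 forms were compared directly, as hsa-miR-140-3p against 5’isomiR-140-3p in MCF10A cells, a contrast that uses no control array. With hsa-miR-140-3p, 677 genes were lower and 520 higher than with 5’isomiR-140-3p, 6.45% and 4.96% of the genes tested. This comparison shares the hsa-miR-140-3p arrays with the one against the controls, so the values of the called genes are given side by side and nothing is read from the counts. Of the 75 genes lower than control, 28 were also lower than with 5’isomiR-140-3p, 7 were higher and 40 were not called. Of the 15 higher genes, 3 were also higher, 2 were lower and 10 were not called.

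In CHIC2 and UBE2C the direct test separated the mimics, and 5’isomiR-140-3p was not called against the controls. CHIC2 stood at 8.46 and 8.56 for hsa-miR-140-3p, at 9.81 and 9.65 for 5’isomiR-140-3p, and at 9.99 and 10.22 for the control mimics (log2 difference to 5’isomiR-140-3p -1.22, adjusted p = 0.00026). UBE2C stood at 11.03 and 11.01, against 12.19 and 12.09 with 5’isomiR-140-3p (difference -1.12, adjusted p = 0.00083). In other genes both 5’isomiR-140-3p arrays were above both controls. REEP5 stood at 9.61 and 9.67 with hsa-miR-140-3p, against 11.05 and 10.95 with 5’isomiR-140-3p (difference -1.36). H2BC5 stood at 6.71 and 6.60, against 8.40 and 8.12 (difference -1.61), and was called higher with 5’isomiR-140-3p than with the control mimics. RAB7B, a small GTPase of late endosomes, stood at 8.42 and 8.36 with 5’isomiR-140-3p and at 6.65 and 6.12 with the control mimics, and was at background with hsa-miR-140-3p. SLCO2A1 stood at 5.96 and 6.14 with hsa-miR-140-3p, against 7.91 and 7.90 with 5’isomiR-140-3p (difference -1.86), and CA8, a protein related to carbonic anhydrases, at 6.37 and 6.11, against 7.79 and 8.01 (difference -1.66).

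Other genes were low with both forms. Of the 15 largest falls, MAP1LC3A, SCD5, SLC2A3, MFAP5, SPINK6, LUM, PLD5, ATP6V1D and PTAFR were also called lower with 5’isomiR-140-3p. The others of the 15 were not, and both comparisons used the same control arrays. CBL and KRT14 were at 33.7% and 36.8% of control with 5’isomiR-140-3p, against 46.5% and 51.5% with hsa-miR-140-3p. MAP1LC3A stood at 5.69 and 5.72 with hsa-miR-140-3p, against 6.07 and 5.97 with 5’isomiR-140-3p (difference -0.31, adjusted p = 0.11). SLC2A3 stood at 6.36 and 6.54, against 6.42 and 6.10 (difference 0.18, adjusted p = 0.39), and the arrays of the mimics overlapped. A p above the threshold does not show equal levels, and with a standard error of 0.13 the difference of SLC2A3 was not resolved. In 7 genes hsa-miR-140-3p left levels above those with 5’isomiR-140-3p, namely RGS2, SRPX, MFSD1, ARHGEF3, TLCD5, LHFPL2 and UBE2L6. RGS2 stood at 7.57 and 7.66 with hsa-miR-140-3p, at 6.02 and 6.36 with 5’isomiR-140-3p and at 8.76 and 8.87 with the control mimics (difference to 5’isomiR-140-3p 1.42, adjusted p = 0.0010).

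Among the genes that rose, MMP3 was higher with hsa-miR-140-3p in the direct test too, at 8.14 and 8.42 against 6.67 and 6.34 with 5’isomiR-140-3p (difference 1.77, adjusted p = 0.00072). KRT80, EPCAM, FAM3C, EIF4EBP2, FAAH2, LCN2 and MYLIP were also called higher with 5’isomiR-140-3p than with the same control mimics. The others of the 15 were not. KRT80, EPCAM and FAM3C stood at 265%, 225% and 293% of control with 5’isomiR-140-3p. LCN2 and MYLIP were called lower with hsa-miR-140-3p than with 5’isomiR-140-3p. LCN2 stood at 6.24 and 6.07 with hsa-miR-140-3p, against 9.71 and 9.51 with 5’isomiR-140-3p, and MYLIP at 8.35 and 8.28, against 9.53 and 9.51 (differences -3.45 and -1.21).

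**Figure D5:**
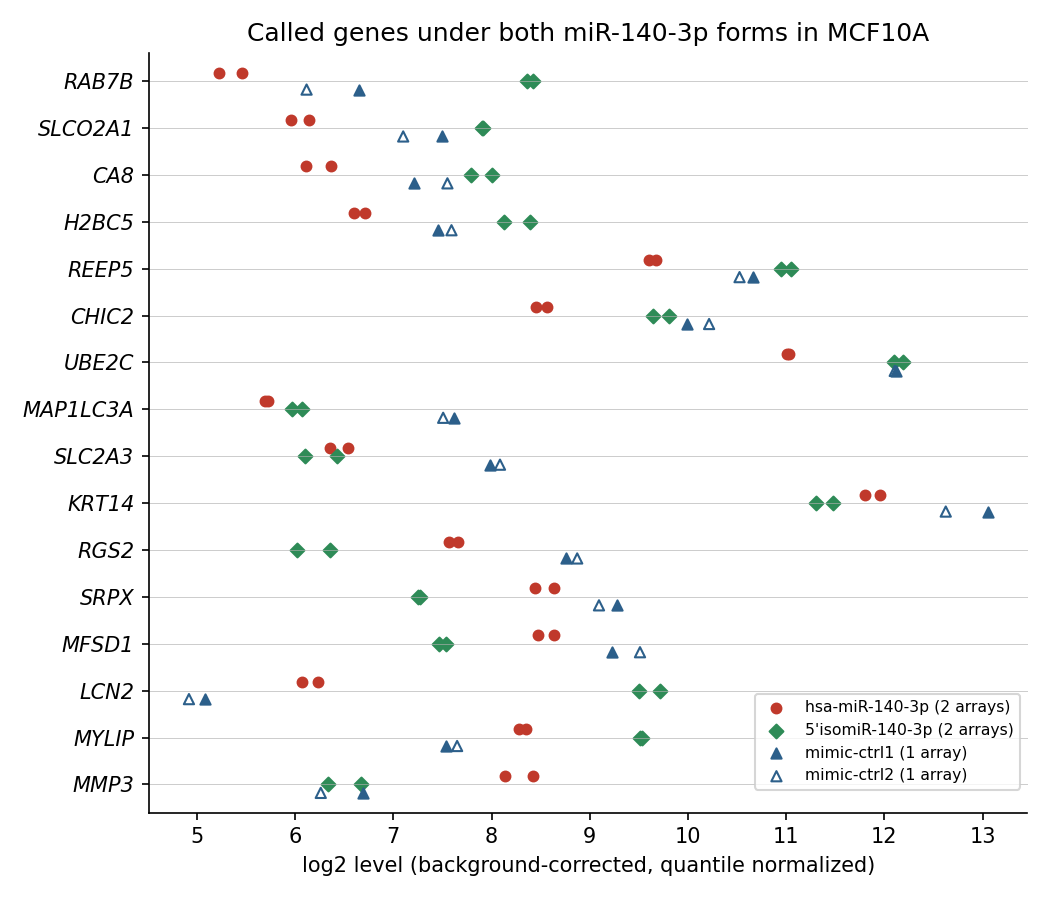
Log2 levels (x axis) of 16 called genes in MCF10A cells on the 2 hsa-miR-140-3p arrays (red points), the 2 5’isomiR-140-3p arrays (green diamonds) and the control arrays (triangles). The genes were chosen after their values had been seen. CHIC2 and UBE2C are lower on the hsa-miR-140-3p arrays than on all others, MAP1LC3A and SLC2A3 are below the controls with both forms, and LCN2 is at 9.71 and 9.51 with 5’isomiR-140-3p, against 6.24 and 6.07 with hsa-miR-140-3p.

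The genes that the study followed as candidates of 5’isomiR-140-3p were not called with hsa-miR-140-3p against the control mimics. The study had picked them from genes that its own analysis of these arrays found lowered by 5’isomiR-140-3p and not by hsa-miR-140-3p. Their lack of calls here, and their direction in the direct test, therefore follow from that choice and are no separate support. Of 8, 7 were tested, and CAP1 was not analysed here. ITGA6, the alpha-6 integrin chain, had the largest difference, with 8.23 and 8.23 with hsa-miR-140-3p against 8.76 and 8.72 with the control mimics (log2 fold change -0.51, adjusted p = 0.15), and the groups did not overlap. COL4A1, a chain of basement membrane collagen, MARCKSL1, a relative of MARCKS, CCT5, a chaperonin subunit, RUVBL1, an ATPase of chromatin complexes, CHCHD4, an import factor of mitochondria, and SRF, which drives transcription of cytoskeletal genes, had log2 fold changes between -0.23 for CCT5 and 0.17 for SRF. All 7 were higher with hsa-miR-140-3p than with 5’isomiR-140-3p, with SRF at the low end and COL4A1 at the high end, by 2.40 log2 units, each called by the direct test.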

How the data were processed

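The authors hybridised 1 HumanHT-12 v4 BeadChip per RNA sample and deposited intensities on a linear scale, normalized within each cell line by a method not given in the sources used here, with no background subtracted. A second table, of 24 columns that could not be matched to a label, was not used. Of 47323 probes, 4 with missing values were left out, 30111 carry 1 gene symbol, 8 carry several and 17200 none.

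Intensities were processed with neqc of limma 3.58.1 in R 4.3.3 (normexp with an offset of 16, quantile normalization over 12 arrays, log2), with 457 olfactory receptor probes in place of negative controls. Probes above the 0.99 quantile of these on at least 2 arrays were kept (13705 probes), and the brightest probe of each of 10491 genes was tested. The model had a mean for each of 6 groups (6 residual and 3.79 prior degrees of freedom). Calls needed a level under 65% of the reference or more than 65% above it and a Benjamini-Hochberg adjusted p under 0.05. Calls were tested on simulated data. Members, gene lists and tests were chosen with earlier results of these data known. Named genes are the 15 largest changes in each direction, called members of each list or its 2 members of lowest p, genes lower in both lines, the largest differences against 5’isomiR-140-3p, markers, the study's candidates and WWP2. Further called genes were named after their values had been seen. For 30072 probes the symbol was updated through the gene ID. The number of arrays limits the precision. Alternatives were other background corrections, scalings, filters, probe summaries, fits of fewer arrays, a replicate block, no fold threshold and leaving out each array. A further alternative was the t-test that the methods name as a general default, here called the methods' t-test. Testing every probe, and testing genes above background on all 4 arrays, were added after seeing the data. Matches of the seed in 3′ untranslated regions were not analysed here.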

Additional observations from a re-analysis of the deposited data

Results flagged for a closer look

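In 5 called genes the hsa-miR-140-3p arrays lay on opposite sides of the control arrays in the 2 cell lines. The difference of the effects, MCF10A minus MDA-MB-231, was 1.61 log2 units for TGM2 (adjusted p = 0.17, limma), with log2 fold changes of 1.16 in MCF10A cells, and -0.45 in the cancer line, and all 8 arrays above background. For the other 4 genes part of the values lay at background, so their differences are fitted values with no exact size. They were -1.33 for C3orf33 (0.23), -1.33 for SLCO2A1 (0.17), -1.01 for CHRNB1 (0.20) and -0.81 for SUGCT (0.26). C3orf33, SLCO2A1 and SUGCT were at background on all 4 MDA-MB-231 arrays of the contrast, where a side has no meaning. C3orf33 and CHRNB1, a subunit of the muscle acetylcholine receptor, were at background on both hsa-miR-140-3p arrays of MCF10A, where they were at least 1.08-fold and 1.37-fold lower than control. None of the 5 passed the adjusted test.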

How the results depend on the processing

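The counts of genes lower and higher than control in MCF10A were 75 and 15, of genes lower and higher than with 5’isomiR-140-3p 677 and 520, of effects that differed between the lines 0, and of genes lower in both lines 29. Without background correction, 6 genes were higher than control, and 361 and 197 were lower and higher than with 5’isomiR-140-3p. The deposited values on a log2 scale gave 6, 365 and 194. With no filter on dim probes, over 19660 genes, 45 were lower, 6 higher and 18 lower in both lines, and with the looser filter, over 12807 genes, 49 were lower. A separate fit of each line gave 1 lower gene, 0 higher and 1 lower in both lines, and the 4 arrays alone gave 0 and 0. Moderation with trend and robust estimates gave 3 effects that differed between the lines and 48 genes lower in both. The methods' t-test gave 0 for every count after Benjamini-Hochberg adjustment, and 123, 33, 610, 445 and 29 at its unadjusted threshold. The study names this test as its general default, while its array methods name no test for the corrected p. These counts are therefore not a repeat of the study's own array analysis. With no fold threshold 1037 genes were higher than with 5’isomiR-140-3p. The replicate block gave 19 lower and 4 higher genes and 10 lower in both lines, with 648 and 500 against 5’isomiR-140-3p. Both control arrays carry number 1, so the numbers pair no control with replicate 2, and the correlation of replicate differences between the mimics was 0.02 for MCF10A, and -0.02 for the other line, so same-numbered arrays did not deviate together. Leaving out each of the 12 arrays gave 3 to 110 lower and 0 to 42 higher genes, 432 to 716 and 376 to 545 against 5’isomiR-140-3p, 0 to 4 effects that differed between the lines and 2 to 45 genes lower in both. Leaving out an array of another group alters only the pooled spread. The causes of these shifts were not tested, apart from the fewer arrays or genes that a setting holds by construction. Of 57 called genes that the naming rules chose, 57 kept their call with no fold threshold, 55 with trend and robust moderation, 54 with the mean of all probes, 51 under median scaling, 47 with the looser filter, 41 with none, 32 without background correction or with deposited values, 21 with the replicate block, 1 with each line on its own, 0 with the 4 arrays alone or the methods' t-test, and 3 to 57 when an array was left out. No direction of these 57 reversed under any setting run. The difference between the lines was not run for the 4 arrays, each line on its own and the methods' t-test. Signals near background limit 23 of the 75 lower and 5 of the 15 higher genes.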
